A study of Mus musculus with 6 samples.

Results

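The mesothelial genes described here are *Msln*, *Upk3b*, *Upk1b*, *Lrrn4*, *Wt1*, *Muc16*, *Gpm6a* and *Bnc1*, chosen by symbol as markers of the pleural mesothelium. They are 8 of 26100 rows in the table of gene counts, and 8 of 8 passed the filter on low counts that left 16633 rows for testing. RNA was sequenced from whole lung of 3 *Clec7a* knockout (KO) mice and 3 wild-type (WT) mice, each given bleomycin through the airways and sampled after 14 days. *Clec7a* encodes dectin-1, a lectin receptor of myeloid cells, and bleomycin is a cytotoxic agent used in mice to bring on lung scarring. The sources used here do not give the strain, age or sex of the mice or how the knockout allele was made, and lungs without bleomycin were not analysed here.

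The mesothelium is the flat epithelium that covers the lung surface and lines the pleural cavity, where it secretes a lubricating fluid and keeps the opposed surfaces apart. Its cells descend from *Wt1*-expressing coelomic epithelium and carry both epithelial keratins and mesenchymal features. Mesothelin, the product of *Msln*, is a surface glycoprotein that binds the mucin encoded by *Muc16*. The mesothelium is a thin layer, so its transcripts form a small share of a whole-lung library. In bulk tissue, fewer cells of a type and less RNA per cell cannot be told apart.

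The libraries held 31052936 to 34451956 counts. KO replicate 1 and WT replicate 1 stood apart from the rest, with Spearman correlations across genes of 0.924 to 0.947 in pairs that include either and 0.959 to 0.992 in the other pairs. Mitochondrial transcripts took 7.34% of the counts in KO replicate 1, against 2.69% to 3.87% in the other 5 libraries. *Clec7a* had 114, 230 and 92 counts in KO lungs, against 1974, 2732 and 6734 in WT lungs, lower in each KO library than in any WT library. Its log2 fold change was -4.68, with an adjusted p of 0.203 by edgeR and 1.52e-14 by DESeq2. The lung markers *Sftpc*, *Ager* and *Scgb1a1* were read at 250.4 CPM (counts scaled to a common library size) or more in every library.

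On a per-length scale the 8 genes spanned a wide range of levels, with *Msln* the highest of the 8 in each library. In the authors' table of FPKM (fragments scaled to gene length and library size), *Msln* averaged 70.7 over the 6 libraries. *Upk1b* averaged 21.8, *Gpm6a* 18.3, *Upk3b* 9.95 and *Lrrn4* 5.01 FPKM. *Wt1*, *Muc16* and *Bnc1* averaged 1.33, 0.887 and 0.789 FPKM. *Msln* ranged over libraries from 22.1 to 183 FPKM, above the highest level of *Lrrn4* (14.1 FPKM). Neighbours in this order overlapped in their ranges over the libraries throughout, but all 8 genes were read in the same libraries. Within each library *Msln* lay above *Upk1b*, *Gpm6a* above *Upk3b*, *Upk3b* above *Lrrn4* and *Lrrn4* above *Wt1*. The order of *Upk1b* and *Gpm6a*, of *Wt1* and *Muc16*, and of *Muc16* and *Bnc1* changed between libraries.

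The 8 genes differed most between libraries of the same genotype. Both replicate 1 libraries were above the other 4 libraries for 8 of 8 members, which was also the case for 19.4% of all genes tested. With a further requirement of a level at least 2-fold above the mean of replicates 2 and 3 of the same genotype, a limit chosen after the values were seen, the count was again 8 of 8, against 2.63% of genes tested. KO replicate 1 exceeded the mean of KO replicates 2 and 3 by a median of 7.72-fold over the 8 genes, and WT replicate 1 exceeded the mean of WT replicates 2 and 3 by a median of 3.62-fold. Over all genes tested these medians were 0.97 and 0.983. *Lrrn4* had the largest fold in both genotypes, 11.2 in KO and 6.09 in WT, and *Upk1b* the smallest, 2.18 in KO and 2.04 in WT. All 8 genes had the larger fold in KO, by little for *Msln*, with 3.53 in KO and 3.39 in WT. The share of all genes with the larger fold in KO was not counted. The members varied together, so they are not 8 separate observations. Their correlations with the mean of all 8 were 0.836 to 0.985, which are raised because each gene is part of that mean. Between pairs of members Pearson r ran from 0.53 (*Msln* and *Gpm6a*) to 0.983 (*Lrrn4* and *Bnc1*). Each fold rests on 1 library, and the difference between the genotypes' folds was not tested.

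**Figure D1:**
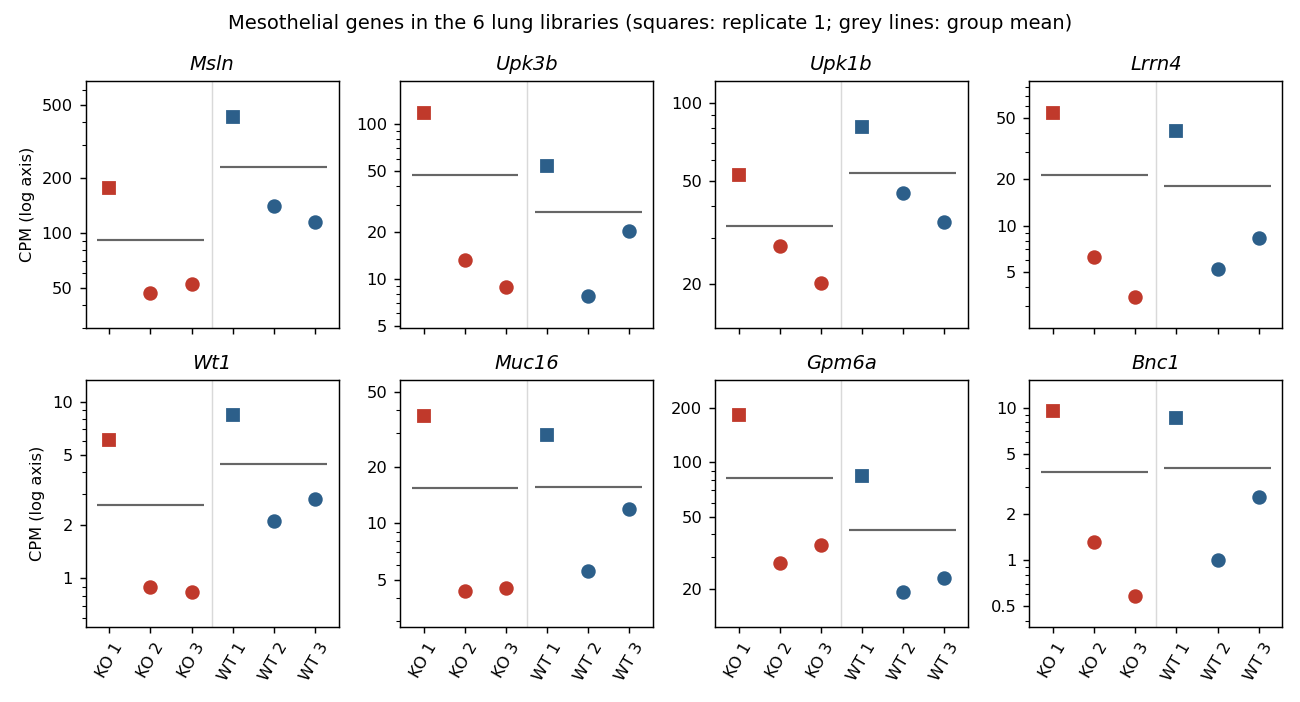
Level of each mesothelial gene in CPM on a log axis in the KO (red, left) and WT (blue, right) libraries. Squares are the replicate 1 libraries, circles the other replicates and grey lines the group means. In all 8 panels both squares lie above every circle.

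**Figure D2:**
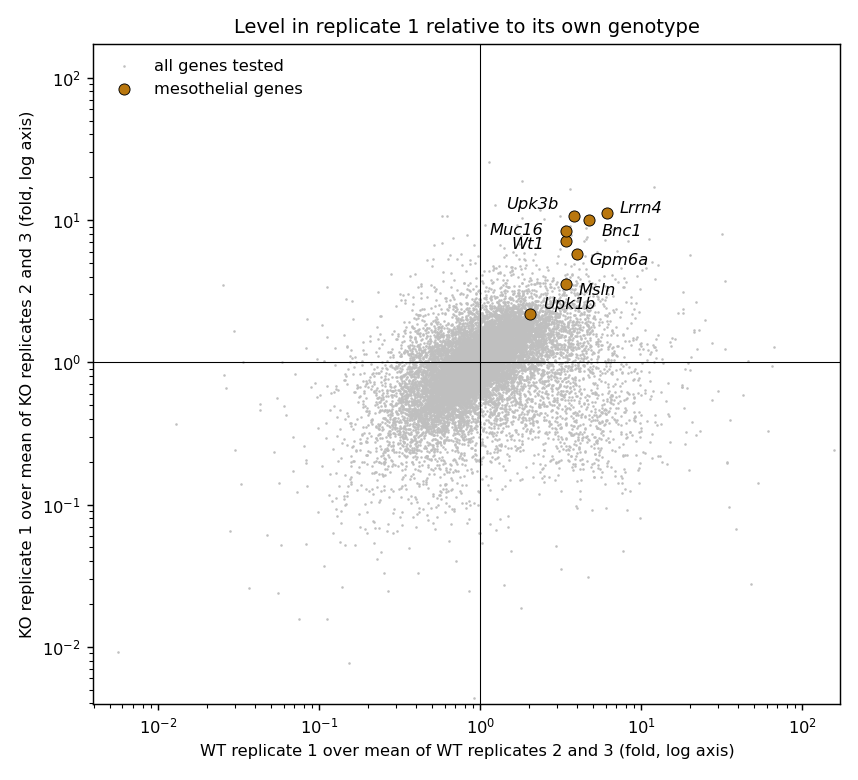
Fold of replicate 1 over the mean of replicates 2 and 3 in KO (vertical) and in WT (horizontal), both on log axes, for all genes tested (grey) and for the 8 mesothelial genes (orange). Genes with a fold of 0 are not drawn. The mesothelial genes lie up and to the right, between 2.18-fold and 11.2-fold in KO and between 2.04-fold and 6.09-fold in WT.

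Between the genotypes, none of the 8 genes was called over the 6 libraries. edgeR's quasi-likelihood test called 0 of 8 members at a Benjamini-Hochberg adjusted p under 0.05, and 0.0% of the 16633 genes tested. *Clec7a*, the gene knocked out, was not called by this test either (adjusted p 0.203), so 0 of 8 does not show that the members were alike between genotypes. At an unadjusted p under 0.05 edgeR had 0 of 8 members, against 11.8% of all genes. DESeq2 called 0 of the 7 members to which it gave an adjusted p, against 3.63% of genes (1.91% higher and 1.73% lower), and gave no p for *Lrrn4*. The KO and WT values overlapped for all 8 genes, while all 3 KO libraries lay above all WT libraries for 9.81% of genes tested and below them for 11.3%. Of the members 3 had higher and 5 had lower estimates in KO, and their median log2 fold change, KO minus WT here and below, was -0.06. The median over all genes tested was -0.01. With 3 mice a group and coefficients of variation of 50.1% to 134% in KO and 45.6% to 109% in WT, the standard errors of the members' log2 fold changes were 0.46 (*Upk1b*) to 1.2 (*Lrrn4*).

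*Msln* had 175, 46.9 and 52.3 CPM in KO replicates 1 to 3, against 431, 139 and 115 CPM in WT replicates 1 to 3. KO replicate 1 lay above WT replicates 2 and 3, so the groups overlapped, but it lay below WT replicate 1, and KO replicates 2 and 3 lay below WT replicates 2 and 3. KO replicate 1 was at 0.407 of WT replicate 1, and the mean of KO replicates 2 and 3 was at 0.391 of the mean of WT replicates 2 and 3. Here and below, the replicate 1 libraries are set side by side because both stood apart from the rest, not as a pair. Each is 1 library. KO replicates 2 and 3 lay below WT replicates 2 and 3 for 33.2% of all genes tested and above them for 30.8%. Mean levels of *Msln* were 91.5 ± 72.6 CPM in KO and 228.3 ± 175.9 CPM in WT (SD, n = 3 each). The log2 fold change was -1.32 ± 0.72 (SE), with an edgeR adjusted p of 0.526. It was -2.20 without KO replicate 1 and -0.47 without WT replicate 1.

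*Muc16*, which encodes the mucin that mesothelin binds (the antigen CA125 in humans), had 37.1, 4.35 and 4.53 CPM in KO lungs and 29.5, 5.53 and 11.9 CPM in WT lungs. The replicate 1 libraries were the highest, with KO above WT, and WT replicate 3 came next. Means of 15.3 ± 18.9 CPM in KO and 15.6 ± 12.4 CPM in WT gave a log2 fold change of -0.03 ± 0.99 (SE, edgeR adjusted p 0.995). The estimate was -1.81 without KO replicate 1 and 0.82 without WT replicate 1. *Msln* and *Muc16*, binding partners as proteins, thus differed in where KO replicate 1 stood relative to WT replicate 1, at 0.407 of it for *Msln* and 1.26 times its level for *Muc16*.

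The uroplakin genes encode membrane proteins best known from the plaques of bladder epithelium. *Upk1b*, a tetraspanin, had 52.5, 28.1 and 20.2 CPM in KO lungs and 81.1, 44.7 and 34.7 CPM in WT lungs. As with *Msln*, KO lay below WT both in replicate 1 and in replicates 2 and 3, while KO replicate 1 lay within the WT range. The log2 fold change of *Upk1b* was -0.67 ± 0.46 (SE, edgeR adjusted p 0.611), -1.15 without KO replicate 1 and -0.24 without WT replicate 1. *Upk3b*, of the uroplakin III type, had 118.5, 13.3 and 8.91 CPM in KO lungs and 53.7, 7.71 and 20.3 CPM in WT lungs. Here KO replicate 1 was highest and WT replicate 2 lowest, a 15.4-fold span over the 6 libraries. Its log2 fold change of 0.79 ± 1.12 (SE, edgeR adjusted p 0.834) turned to -1.29 without KO replicate 1 and was 1.74 without WT replicate 1.

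*Lrrn4* and *Gpm6a* encode membrane proteins also known from neurons, the first a leucine-rich repeat protein and the second a glycoprotein of the proteolipid family. *Lrrn4* had 54.5, 6.25 and 3.45 CPM in KO lungs, against 41.2, 5.19 and 8.32 CPM in WT lungs. Outside replicate 1 the values ran from 3.45 to 8.32 CPM, with KO lowest, WT highest and the genotypes mixed between. Its log2 fold change was 0.23 ± 1.2 (SE, edgeR adjusted p 0.963), and -1.91 without KO replicate 1 and 1.66 without WT replicate 1. *Gpm6a* had 181.5, 27.7 and 35.2 CPM in KO lungs, against 84.3, 19.3 and 22.9 CPM in WT lungs. KO lay above WT both in replicate 1 and in replicates 2 and 3, the opposite order to *Msln* and *Upk1b*. Its log2 fold change was 0.95 ± 0.90 (SE, edgeR adjusted p 0.729), turned to -0.42 without KO replicate 1 and was 1.95 without WT replicate 1.

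The zinc-finger transcription factors were the members of fewest counts. *Wt1*, needed for the development of kidney, gonad and serosal lining, had 193, 30 and 27 counts in KO lungs and 275, 69 and 97 counts in WT lungs, which is 6.1, 0.893 and 0.833 CPM in KO and 8.45, 2.12 and 2.83 CPM in WT. KO lay below WT both in replicate 1 and in replicates 2 and 3, and KO replicate 1 lay inside the WT range. The log2 fold change of *Wt1* was -0.78 ± 0.94 (SE, edgeR adjusted p 0.798), -2.36 without KO replicate 1 and 0.07 without WT replicate 1. *Bnc1*, a basonuclin first known from keratinocytes and germ cells, had 299, 44 and 19 counts in KO lungs and 277, 33 and 89 counts in WT lungs. Its CPM were 9.44, 1.31 and 0.586 in KO and 8.51, 1.01 and 2.6 in WT, with the libraries in the same order from high to low as for *Lrrn4*. The 19 counts of KO replicate 3 give an exact Poisson interval of 0.353 to 0.915 CPM (95%, counting error only), which lies below the point values of the other 5 libraries. Their own counting error, as for the 33 counts of WT replicate 2, was not taken into account, so this does not settle which library was lowest. The log2 fold change of *Bnc1* was -0.10 ± 1.16 (SE, edgeR adjusted p 0.983), -2.08 without KO replicate 1 and 1.06 without WT replicate 1.

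Without the replicate 1 libraries most estimates were negative. In this comparison of 2 KO with 2 WT libraries 7 of 8 members had lower and 1 had higher estimates, with a median of -0.81, against 0.01 over all genes. edgeR called 0 of 8 members, against 0.275% of genes (0.108% higher and 0.167% lower), and had 4 of 8 at an unadjusted p under 0.05, against 30.0% of genes. DESeq2, run on these libraries after the data were seen, called 3 of 8 members lower and 0 higher. Among all genes it called 6.38% lower and 8.68% higher. The 3 were *Msln* (log2 fold change -1.34 ± 0.19, adjusted p 2.38e-10), *Upk1b* (-0.71 ± 0.26, adjusted p 0.0406) and *Wt1* (-1.51 ± 0.55, adjusted p 0.0449). The edgeR adjusted p for the same genes were 0.0534, 0.115 and 0.0815. *Gpm6a* was the member with a higher estimate (0.58 ± 0.17, edgeR adjusted p 0.106). KO replicates 2 and 3 lay below WT replicates 2 and 3 for 4 of 8 members (*Msln*, *Upk1b*, *Wt1* and *Muc16*), and above them for 1 (*Gpm6a*). Over all genes tested these shares were 33.2% and 30.8%, so with 8 members these counts stand near the background.

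**Figure D3:**
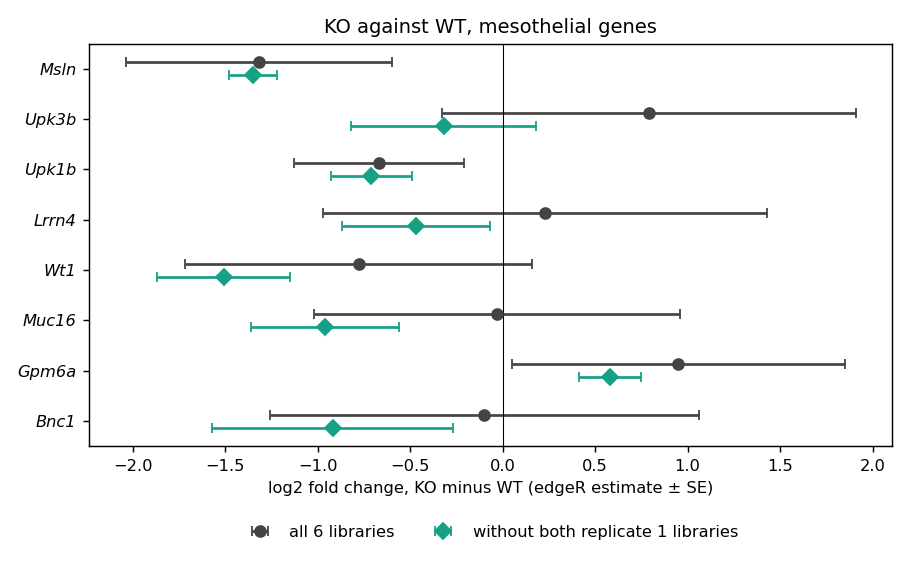
log2 fold change, KO minus WT, of the 8 mesothelial genes with its SE from edgeR, over all 6 libraries (circles) and without both replicate 1 libraries (diamonds). *Msln* (-1.32 and -1.35) and *Upk1b* (-0.67 and -0.71) have like estimates in both, while *Upk3b* (0.79 and -0.32) and *Lrrn4* (0.23 and -0.47) change side.

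The proportions of the members differed between libraries. Their summed level was 635.1, 128.8 and 126.0 CPM in KO lungs and 737.5, 224.7 and 218.3 CPM in WT lungs. *Msln* made up 27.6%, 36.4% and 41.5% of that sum in KO replicates 1 to 3, against 58.4%, 61.9% and 52.6% in WT replicates 1 to 3. The share of *Gpm6a* was 28.6%, 21.5% and 27.9% in KO and 11.4%, 8.59% and 10.5% in WT. For both genes the shares of the genotypes did not overlap. They did overlap for *Upk1b* (8.27% to 21.8% in KO, 11.0% to 19.9% in WT) and *Upk3b* (7.07% to 18.7% in KO, 3.43% to 9.28% in WT). Shares were worked out only for the genes named here. By level rather than share, the KO and WT values of *Msln* and of *Gpm6a* overlapped. All 3 KO libraries lay above all WT libraries in level for 9.81% of genes tested and below them for 11.3%, which is no background for shares of a sum. The shares of *Msln* and *Gpm6a* were chosen after the values were seen and were not tested, and a larger share of 1 gene lowers those of the others. Without *Msln* and *Upk1b* the sum of the other 6 genes was 407.2, 53.8 and 53.5 CPM in KO and 225.5, 40.9 and 68.8 CPM in WT.

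The start sites of *Upk3b*, *Lrrn4* and *Bnc1* are shown because these genes ranked the libraries alike or nearly alike. Spearman correlations between them were 0.943 to 1.0, but *Upk1b* was as near to *Msln* and to *Wt1* (0.943 each). KO replicate 1 was first and WT replicate 1 second for *Upk3b*, *Lrrn4* and *Bnc1*, and also for *Gpm6a* and *Muc16*. RefSeq promoter sequences (GRCm38.p6) were found for 5 of 8 members, *Upk3b*, *Lrrn4*, *Bnc1*, *Gpm6a* and *Muc16*. The 250 bases before the start are given 5′ to 3′ on the gene's strand, at chr5:136038246-136038495 (plus strand) for *Upk3b*, chr2:132880863-132881112 (minus strand) for *Lrrn4* and chr7:81992300-81992549 (minus strand) for *Bnc1*. Capitals mark matches, on either strand, to a TEAD-type sequence (GGAATG), a WT1- or EGR-type sequence (GNGTGGGNG), a GC box (GGGCGG) or a TATA box (TATAAA), and the CCAAT box was searched by those 5 letters. No marked matches overlap.
Upk3b: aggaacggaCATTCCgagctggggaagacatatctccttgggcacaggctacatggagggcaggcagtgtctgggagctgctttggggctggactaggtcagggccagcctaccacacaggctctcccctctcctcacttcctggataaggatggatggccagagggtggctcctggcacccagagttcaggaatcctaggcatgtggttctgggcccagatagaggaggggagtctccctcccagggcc
Lrrn4: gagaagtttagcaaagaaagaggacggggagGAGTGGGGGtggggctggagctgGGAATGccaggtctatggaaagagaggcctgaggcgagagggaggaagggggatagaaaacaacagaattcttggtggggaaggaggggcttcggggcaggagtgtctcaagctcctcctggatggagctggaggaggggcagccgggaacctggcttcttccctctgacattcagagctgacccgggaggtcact
Bnc1: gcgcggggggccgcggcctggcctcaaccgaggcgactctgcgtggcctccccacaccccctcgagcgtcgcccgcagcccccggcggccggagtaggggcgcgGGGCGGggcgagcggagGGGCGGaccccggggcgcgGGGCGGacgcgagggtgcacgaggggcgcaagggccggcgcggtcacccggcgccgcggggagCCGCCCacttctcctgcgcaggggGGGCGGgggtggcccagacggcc

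*Bnc1* stood apart from the other 2 in base composition. GC content was 60.8% for *Upk3b*, 59.2% for *Lrrn4* and 83.6% for *Bnc1*, with 2, 5 and 39 CpG dinucleotides, against a median of 52.4% and 6 CpG over the 32851 promoters in the table. The TEAD-type letters were present for 3 of the 5 members with a sequence (*Upk3b*, *Lrrn4* and 1 of 2 starts of *Gpm6a*) and for 14.4% of all genes. The WT1- or EGR-type letters were present for *Lrrn4* alone, against 14.3% of all genes. *Bnc1* held 5 GC boxes, present for 35.4% of all genes and for none of the other 4 members with a sequence. The TATA box letters were found for *Gpm6a* alone (14.3% of all genes) and the CCAAT letters for 0 of 5 members (37.5% of all genes). A match is a description of letters and not of binding.

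The members lie on 7 chromosomes in GENCODE M21 (GRCm38). *Msln* lies on chromosome 17 from 25748613 to 25754378 (minus strand), *Upk1b* on chromosome 16 from 38773184 to 38800328 (minus strand) and *Gpm6a* on chromosome 8 from 54954843 to 55060871 (plus strand). *Muc16* is the longest, 179076 bases on chromosome 9. *Wt1* and *Lrrn4* share chromosome 2, and *Wt1* (from 105126529, plus strand) is separated by 18 bases from the antisense gene *Wt1os*. No annotated gene overlaps *Msln*, *Upk3b*, *Upk1b*, *Lrrn4* or *Wt1*, while *Muc16* and *Bnc1* each overlap 1 non-coding RNA or pseudogene on the opposite strand and *Gpm6a* overlaps 5 gene models without experimental backing on its own strand. The sources used here do not say whether the counting used strand, so reads in these overlaps are uncertain.

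Other genes known from mesothelium were often high in the same libraries. Of 22 such genes 21 were tested, and both replicate 1 libraries were above the other 4 libraries for 15 of the 21, against 19.4% of all genes. The list includes keratins and *Cdh1*, which other lung epithelia express as well. *Rspo1*, a Wnt pathway agonist of the lung surface, had 18.0, 2.35 and 2.71 CPM in KO lungs and 12.7, 1.87 and 3.91 CPM in WT lungs. *Aldh1a2*, which makes retinoic acid in serosal cells, had 50.5, 17.1 and 11.5 CPM in KO and 48.2, 14.2 and 15.7 CPM in WT. *Nkain4* had 25.6, 8.25 and 11.6 CPM in KO and 22.8, 6.85 and 7.12 CPM in WT. These 3 were named after their values were seen, and in each of them the replicate 1 libraries were the highest of the 6. *Calb2*, the calretinin gene used to recognise mesothelioma in humans, was not tested and reached at most 0.204 CPM in any library.

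Between genotypes the 21 genes had 10 higher and 11 lower estimates, a median log2 fold change of -0.14 and 0 calls by edgeR. At an unadjusted p under 0.05 there was 1 of 21, against 11.8% of all genes. The 4 of highest level, named by rule, were complement *C3* (-0.14 ± 0.37), the sialomucin gene *Podxl* (0.07 ± 0.65), keratin *Krt7* (-0.35 ± 0.86) and haptoglobin *Hp* (-0.50 ± 0.46), with edgeR adjusted p of 0.722 to 0.979. *Podxl*, also expressed by endothelium, was lowest in the replicate 1 libraries, at 281.7, 849.0 and 773.0 CPM in KO and 187.6, 797.6 and 826.4 CPM in WT. DESeq2 called 1 gene of the list, against 3.63% of all genes. It was *Efemp1*, which encodes the matrix protein fibulin-3 and is also made by fibroblasts. It had 123.4, 68.7 and 77.3 CPM in KO lungs and 51.1, 28.4 and 26.1 CPM in WT lungs. All its KO values were above all WT values, as for 9.81% of all genes tested. Its log2 fold change was 1.35 ± 0.35 (SE), with an adjusted p of 0.0245 by DESeq2 and 0.268 by edgeR.

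Of 13 genes related to the members by family 10 were tested. Both replicate 1 libraries were above the other 4 libraries for 0 of the 10, against 19.4% of all genes. The bladder uroplakin genes *Upk1a*, *Upk2* and *Upk3a* reached at most 1.04 CPM in any library, and the mesothelin-like gene *Mslnl* at most 0.799 CPM. By rule *Gpm6b* (-0.26 ± 0.30), *Muc1* (0.40 ± 0.55), *Muc4* (0.70 ± 0.74) and *Bnc2* (-1.26 ± 0.56) are named, with edgeR adjusted p of 0.448 to 0.829. *Bnc2*, a basonuclin of fibroblasts, had 2.24, 6.58 and 5.0 CPM in KO lungs, against 4.82, 15.1 and 13.2 CPM in WT lungs, and was lowest in replicate 1 of each genotype.

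Genes linked to a mesothelial-to-mesenchymal shift were highest in both replicate 1 libraries in 0 of 17 cases, against 19.4% of all genes. Of 17 tested genes 5 had higher and 12 lower estimates in KO, with a median of -0.58 and 0 calls by edgeR. At an unadjusted p under 0.05 there were 7 of 17, against 11.8% of all genes. Fibronectin *Fn1* had 789.9, 7283.7 and 3993.6 CPM in KO lungs, against 1928.1, 12077.8 and 12374.0 CPM in WT lungs (log2 fold change -1.13 ± 0.95, edgeR adjusted p 0.69). In both genotypes replicate 1 was the lowest for *Fn1*, the reverse of the mesothelial genes. *Col1a1* (-1.27 ± 1.04), *Acta2* (-1.39 ± 0.45) and *Vim* (-1.08 ± 0.30) complete the 4 named by rule, with edgeR adjusted p of 0.274 to 0.68. DESeq2 called *Vim* (adjusted p 0.0112) and *Twist1* (adjusted p 0.00472) lower, 2 of 17, against 1.73% of all genes called lower. These genes are expressed by many mesenchymal cells of a scarring lung, and their levels are not a measure of the mesothelium.

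Retinoid and *Wt1*-linked serosal genes had 5 higher and 8 lower estimates of 13 tested and a median of -0.35. edgeR called 0 of 13, against 0.0% of all genes, and had 3 of 13 at an unadjusted p under 0.05, against 11.8%. *Aldh1a1* (0.51 ± 0.58, edgeR adjusted p 0.782) and *Sfrp1* (-0.35 ± 0.55, edgeR adjusted p 0.853) are named by rule beside *Podxl*. DESeq2 called 1 of 13, against 3.63% of all genes. It was *Tcf21*, a transcription factor of lung fibroblasts, with 38.6, 32.2 and 43.0 CPM in KO and 12.7, 17.5 and 16.1 CPM in WT. Its adjusted p was 0.000143 by DESeq2 and 0.203 by edgeR. The replicate 1 libraries were above the other 4 libraries for 6 of the 13, against 19.4% of all genes.

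Markers of other cells also differed between the libraries, and their part in the values of the mesothelial genes was not tested. The 10 type 1 alveolar genes summed to 9830.2, 2718.8 and 5154.7 CPM in KO lungs and 7242.9, 2704.1 and 1883.6 CPM in WT lungs, so replicate 1 was highest in both genotypes. Of the 10 genes 5 had both replicate 1 libraries above the other 4, against 19.4% of all genes. The 10 type 2 alveolar genes summed to 38772.9, 9938.9 and 14355.4 CPM in KO and 14131.3, 6663.3 and 6279.7 CPM in WT, with both replicate 1 libraries on top for 3 of the 10, against the same 19.4%. *Lyz2* alone gave 18786.2, 6330.6 and 4023.2 CPM of the KO sums and 3475.5, 3713.9 and 4279.6 CPM of the WT sums. In WT it was thus lowest in replicate 1, unlike the sum. Secretory airway genes differed in that their sum was far above the rest in WT replicate 1 alone. It was 12748.0 CPM over 14 genes there, against 378.2 to 5142.2 CPM in the other 5 libraries. *Scgb1a1* alone gave 10243.5 CPM of the sum in WT replicate 1. *Cyp2f2* (571.6 CPM) and *Muc5ac* (2.53 CPM) were highest in KO replicate 3 and *Tff2* (1.19 CPM) in KO replicate 2, all others of the list in WT replicate 1. Of those 14 genes 1 was highest in both replicate 1 libraries, against 19.4% of all genes. Heart muscle genes summed to 140.7 to 335.0 CPM in KO lungs and to 70.8 to 441.9 CPM in WT lungs and were highest in WT replicate 1, with 140.7 CPM in KO replicate 1. Genes of neurons and Schwann cells, where *Gpm6a* is also expressed, summed to 14.0 to 27.7 CPM in KO and 37.8 to 46.5 CPM in WT. The summed endothelial genes were lowest in the replicate 1 libraries, at 1862.6 CPM in KO replicate 1 and 1093.6 CPM in WT replicate 1. The other libraries had sums of 3344.3 to 3740.8 CPM. Not every gene followed the sum, as *Car4* was highest in KO replicate 1 (119.8 CPM, against 30.2 to 92.1 CPM in the other libraries).

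**Figure D4:**
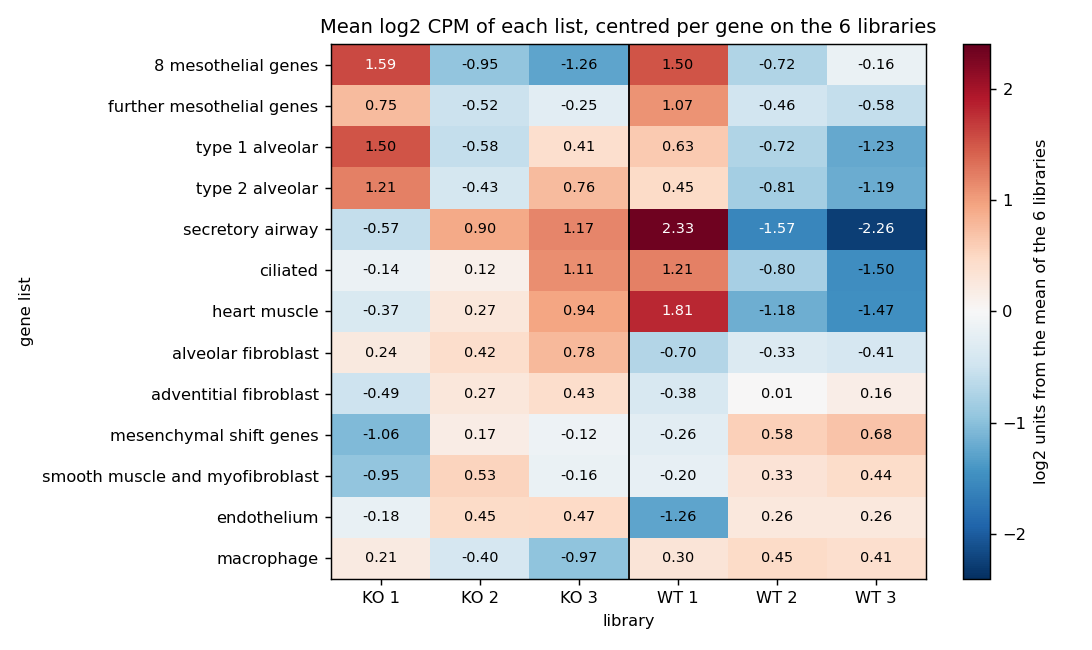
Mean log2 CPM of each gene list in each library, centred for every gene on the mean of the 6 libraries, with KO on the left and WT on the right. The 8 mesothelial genes stand at 1.59 in KO replicate 1 and 1.5 in WT replicate 1, where the secretory airway list is at -0.57 and 2.33 and the mesenchymal shift list at -1.06 and -0.26.

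The genes whose levels over the 6 libraries were most like those of the mesothelial genes differed far less between libraries than the members did. Likeness was the Pearson correlation of log2 CPM with the mean standardised log2 CPM of the 8 members over 6 libraries, given as a description. The 10 highest, with r of 0.9929 to 0.9975, were *Lgals9*, *Mcrip1*, *Scand1*, *Mrpl48*, *Nfs1*, *Bax*, *Brms1*, *Mrps18a*, *Ostc* and *Akr1a1*. *Lgals9*, which encodes galectin-9, had 121.9, 106.5 and 105.9 CPM in KO lungs and 121.7, 109.7 and 111.2 CPM in WT lungs. *Akr1a1*, an aldehyde reductase gene, had 735.1, 438.3 and 397.2 CPM in KO and 772.7, 494.9 and 501.9 CPM in WT. Their log2 fold changes between genotypes were -0.2 to -0.04, with edgeR adjusted p of 0.86 to 0.959.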

How the data were processed

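RNA of whole lung from 3 *Clec7a* KO and 3 WT mice was extracted with TRIzol and made into libraries with an NEBNext Ultra kit, per the labels' protocols. The authors deposited a table of gene counts, whole numbers with no normalization, that sum to 31052936 to 34451956 per library. FPKM values, scaled by the authors to gene length and mapped fragments, were deposited for the same genes. KO columns of that table were assigned to the group without replicate numbers. The submitters' processing notes name HISAT2 2.0.4, StringTie 1.3.4d and GRCm38. The sources used here do not give counting settings, strand or annotation release.

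Rows were kept by filterByExpr (16633 of 26100), scaled by TMM and tested KO against WT with edgeR 4.0.16 (R 4.3.3), by robust quasi-likelihood with no covariate. P-values are 2-sided, with Benjamini-Hochberg adjustment over all rows and a threshold of 0.05. SE was taken as the size of the log2 fold change divided by the root of F. CPM use the TMM factors. Alternatives were DESeq2 1.42.0, limma 3.58.1 (voom, or log2 FPKM with a pseudocount of 1 or 0.1), other scalings and filters, the replicate number as a block, and libraries left out. DESeq2 without the replicate 1 libraries was chosen after seeing the data. The fits were tested on simulated counts. The members and lists were chosen with earlier results of these data known. The 3 libraries of a genotype came from 3 mice per the labels, so p-values rest on the spread between mice. The named-gene rule took all members, and from each list the genes past the threshold, filled to 4 by mean CPM; the 10 genes most like the members needed a mean of 1 CPM. Single genes of the lists that the rule would name are in part not reported here.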

Additional observations from a re-analysis of the deposited data

How the results depend on the processing

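No alternative called a member except DESeq2 without both replicate 1 libraries, chosen after seeing the data, which called 3. The count of genes called over the whole table was 0 by edgeR and 678 by DESeq2, 46 by edgeR and 2463 by DESeq2 without both replicate 1 libraries, and 0 to 3 when 1 library was left out. The median of the members was -1.86 without KO replicate 1 and 0.94 without WT replicate 1, the lowest and highest with 1 library left out, and -0.81 without both. Of 143 member estimates under an alternative 119 kept direction and side of the threshold, and 21 changed direction, 12 of them with 1 library left out. Estimates that changed direction there ranged from -1.29 to 1.74 for *Upk3b*, -1.91 to 1.66 for *Lrrn4*, -2.36 to 0.07 for *Wt1*, -1.81 to 0.82 for *Muc16*, -0.42 to 1.95 for *Gpm6a* and -2.08 to 1.06 for *Bnc1*, while *Msln* (-2.20 to -0.47) and *Upk1b* (-1.15 to -0.24) kept theirs. *Lrrn4* also turned to -0.21 with limma-voom, -0.02 (pseudocount 1, with or without the filter) or -0.12 (pseudocount 0.1) on FPKM, and -0.47 (edgeR) or -0.46 (DESeq2) without both replicate 1 libraries, and *Upk3b* to -0.32 (edgeR) or -0.31 (DESeq2) there. The cause was not tested.

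Libraries share replicate numbers, and the deviations of equal numbers correlated at 0.351, 0.35 and -0.099. Those of unequal numbers correlated at -0.512 to 0.468. The highest, KO replicate 2 with WT replicate 3, lay above all equal numbers, so the numbers were not taken as pairs. With the replicate number as a block edgeR called 0 members and 0 genes at an adjusted p under 0.05. At an unadjusted p under 0.05 it had 4 of 8 members, against 20.4% of all genes and 0 of 8 members without the block. Of the 4, *Msln*, *Upk1b* (-0.69 ± 0.11, adjusted p 0.14) and *Wt1* (-1.14 ± 0.39, adjusted p 0.219) had lower and *Gpm6a* (0.75 ± 0.16, adjusted p 0.153) higher estimates. *Msln* was at -1.33 ± 0.13 (adjusted p 0.128), *Lrrn4* turned to -0.17 and the median was -0.47. Depth limits *Bnc1* and *Wt1*, whose lowest counts were 19 and 27.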
